A study of Mus musculus with 15 samples.

Results

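The genes described here are 9 members of the Hedgehog pathway in the embryonic mouse pancreas: the ligands Shh, Ihh and Dhh, the receptor Ptch1, the signal transducer Smo, the transcription factors Gli1, Gli2 and Gli3, and the membrane-bound inhibitor Hhip. They were chosen by name, from the Ensembl identifiers that the GENCODE M21 annotation pairs with these symbols. No filter on their values was used, but earlier results of these data were known when they were chosen. All 9 were found among the 25292 genes of the count table. Of these, 7 carried enough reads to be tested, whereas Shh and Ihh did not.

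RNA was sequenced from 15 libraries of C57/Bl6J mice in 5 groups of 3. Whole pancreata were taken at 14.5 dpc (days post coitum) from wt embryos or from embryos labelled S1pr2 null, in which a Neo cassette disrupts exon 1 of S1pr2, a receptor for sphingosine-1-phosphate, in all cells. The other 3 groups were wt dorsal buds of 14.5 dpc grown for 2 days as air-liquid interface (ALI) cultures, in which an explant is grown at the surface of serum-free medium. They were kept in standard medium (control), with 15 μM JTE013, an antagonist of S1pr2 (JTE), or with 15 μM JTE013 and 50 ng/ml connective tissue growth factor (JTE + CTGF). By the methods of the study, a library pooled up to 3 organs or explants and the 3 libraries of a group were independent pools.

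Hedgehog ligands bind Ptch1 and so release Smo, which otherwise is held inactive. Active Smo keeps Gli2 and Gli3 from being cut to repressors and lets them switch on targets, among them Gli1, Ptch1 and Hhip, which are widely used as readouts of the pathway. Both Ptch1 and Hhip take up ligand and dampen the signal. In the early foregut, Shh is kept out of the pancreatic endoderm while it is made by the neighbouring stomach and intestine, and forced Hedgehog activity disturbs pancreatic identity. Dhh is best known from Schwann cells, endothelium and the testis.

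Of the 9 genes, 7 had an entry among the RefSeq promoter windows used here, and Shh and Gli1 did not. Windows of 250 bases upstream of the RefSeq start (build GRCm38.p6, which is mm10) are printed 5′ to 3′ on the strand of the gene: those of Ptch1 and Hhip, because the 2 target genes parted in the cultures below, and that of Gli2, because it alone held the core of the Gli site. Capitals mark this core, ACCACCC, here read on the opposite strand as GGGTGGT.
Ptch1, chr13:63565736-63565985, minus strand: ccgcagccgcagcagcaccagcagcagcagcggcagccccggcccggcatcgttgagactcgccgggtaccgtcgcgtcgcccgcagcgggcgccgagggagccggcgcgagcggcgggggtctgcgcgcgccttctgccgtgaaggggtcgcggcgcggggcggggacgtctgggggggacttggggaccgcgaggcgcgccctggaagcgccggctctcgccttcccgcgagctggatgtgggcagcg
Hhip, chr8:80058009-80058258, minus strand: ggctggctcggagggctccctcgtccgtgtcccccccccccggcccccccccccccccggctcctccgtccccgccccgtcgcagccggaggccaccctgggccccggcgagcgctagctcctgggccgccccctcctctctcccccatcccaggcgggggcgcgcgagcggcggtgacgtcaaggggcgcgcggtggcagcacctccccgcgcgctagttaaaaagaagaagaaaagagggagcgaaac
Gli2, chr1:119053620-119053869, minus strand: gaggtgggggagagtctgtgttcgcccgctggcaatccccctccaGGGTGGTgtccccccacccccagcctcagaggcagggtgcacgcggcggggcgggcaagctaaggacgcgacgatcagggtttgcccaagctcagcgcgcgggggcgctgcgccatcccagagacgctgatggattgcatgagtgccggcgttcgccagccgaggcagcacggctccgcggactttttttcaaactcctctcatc
On both strands, the Gli consensus GACCACCCA occurred in 74 of 32851 such mouse windows (0.225%), its core ACCACCC in 1289 (3.92%) and the shorter CCACCC, which lies within both, in 9223 (28.1%). None of the 7 member windows held the consensus. The core in the Gli2 window began at base −205 from the start, and CCACCC, left in lower case elsewhere, was found in 6 of the 7 windows, that of Hhip (at base −158) included and that of Ptch1 not. These matches are letters in a window and not binding sites, and Gli sites elsewhere at these genes were not looked for.

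Read totals were between 11402804 and 13828737 per library. Reads of the targeted gene did not follow its label: S1pr2 stood at 1458, 1263 and 1354 normalised reads in the libraries labelled S1pr2 null and at 772, 762 and 762 in wt, a rise of 0.83 ± 0.07 (log2, SE; edgeR adjusted p = 4.5e-07), and directions below rest on the label. Counts per gene do not show which exons the reads came from, so they do not test the disruption of exon 1. Of 5 endocrine markers, 4 were lower in these libraries, with sums of 785 to 936 CPM (counts scaled to library size) against 1650 to 1890 in wt. Normalised reads are reads scaled to a common effective library size. In pairwise tests of replicates, the mean chi-square per gene, which is near 1 for counting noise alone, was 2.35 to 10.2, except that the JTE 3 library reached 17.2 and 23.2 against its 2 replicates. In the pairwise comparisons with JTE, results of members and other pathway genes that rest on this library are also given without it. Calls of cell markers are given only with it. The same 3 control explant libraries enter 3 of the pairwise comparisons, and the same wt libraries and JTE libraries enter 2 each.

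Per length, Smo was the most abundant member in every group, and the ligands were at the bottom. In wt pancreata the levels, in RPKM (reads scaled to exon length and to effective library size), were 54.5 ± 2.0 (SD, n = 3) for Smo, 8.06 ± 0.47 for Ptch1, 4.20 ± 0.55 for Gli3, 3.70 ± 0.32 for Gli2, 2.22 ± 0.16 for Gli1, 2.12 ± 0.24 for Hhip, 0.793 ± 0.20 for Dhh and 0.0817 ± 0.038 for Ihh. Libraries overlapped between Gli3 and Gli2 and between Gli1 and Hhip, and not between other neighbours in this order. Shh had no read in any wt library. The order at the top, Smo and then Ptch1, was the same in all 5 groups, but in JTE explants Hhip stood next at 3.04 ± 0.58, overlapping Gli3 at 2.58 ± 0.60, while Gli1 had dropped to 0.131 ± 0.0086, below every library of Gli2 (1.72 to 2.56).

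**Figure D1:**
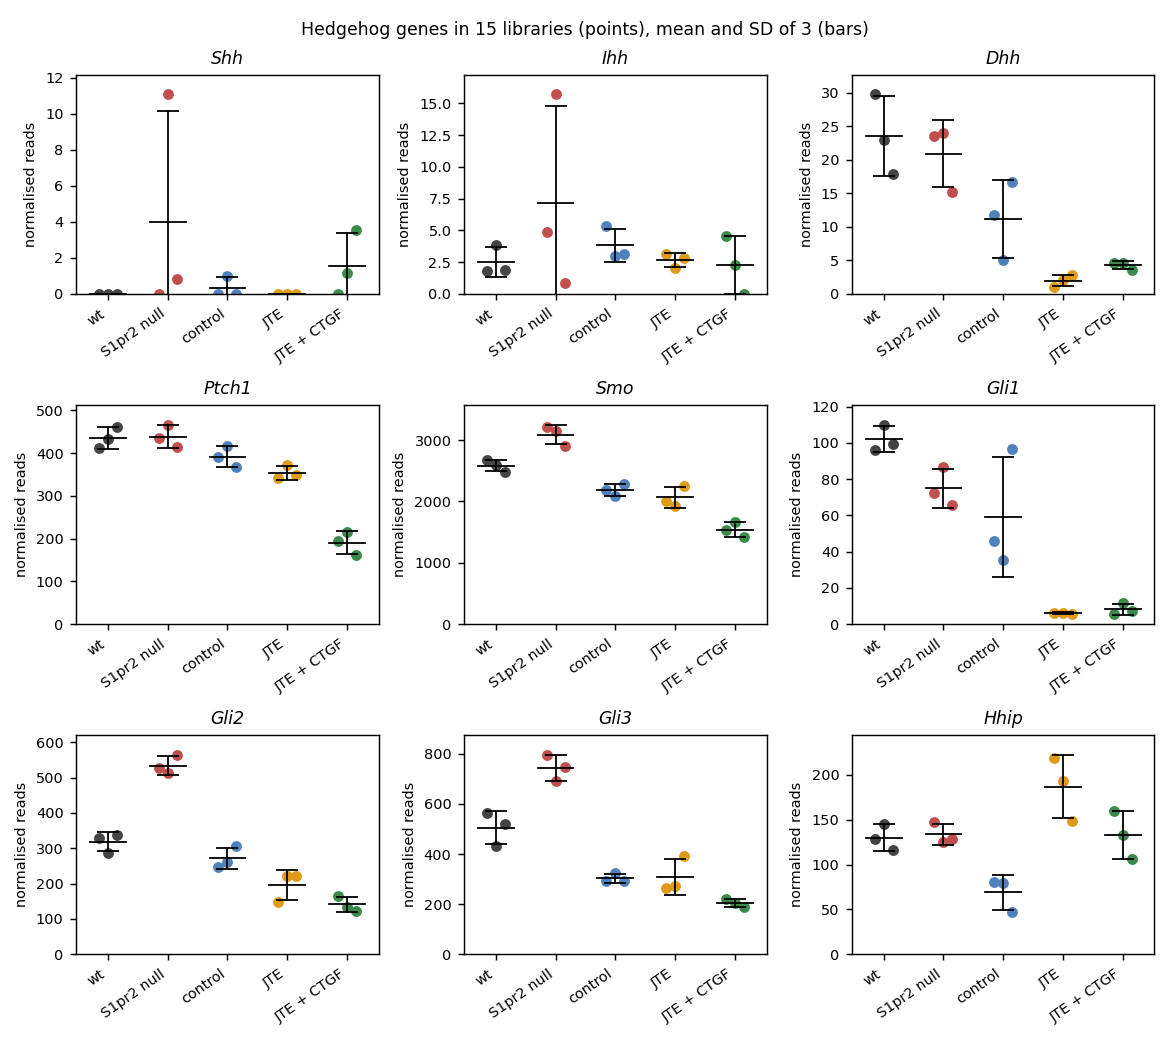
Normalised reads (vertical axis, linear, each panel with its own scale from 0) of the 9 Hedgehog genes in the 5 groups. Each point is 1 library, the long bar is the mean and the short bars are the SD of 3 libraries. Gli1 lies at 5.58 to 6.35 in the 3 JTE libraries against 35.2 to 96.9 in the control explants, Hhip moves the other way, and Shh and Ihh are near 0 except in 1 library labelled S1pr2 null.

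Of the 3 ligands, Shh and Ihh were close to the limit of detection, and Dhh was low but measurable in fresh pancreata. Shh, the ligand best known from gut endoderm, had 0 reads in each wt library, 0, 12 and 1 in the libraries labelled S1pr2 null, 0, 1 and 0 in control explants, 0 in each JTE library and 0, 1 and 3 with JTE + CTGF. The summed count of 0 in wt allows up to 3.69 reads (exact Poisson interval, counting error only). Ihh, a second gut ligand, had 2, 4 and 2 reads in wt, 5, 17 and 1 in the libraries labelled S1pr2 null, 5, 3 and 3 in control explants, 3, 2 and 3 with JTE and 4, 2 and 0 with JTE + CTGF. Thus 1 library, the second labelled S1pr2 null, held 12 of the 13 Shh reads and 17 of the 23 Ihh reads of its group. The intestinal markers Cdx1 and Cdx2 had 6 reads each in that library and 6 and 4 in the third, and the summed level of 10 stomach and intestine markers was 77.4 CPM there against 90.7 in both of the others. The part of such tissue in these reads was not tested.

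In pancreata labelled S1pr2 null, 3 of the 7 tested members, Smo, Gli2 and Gli3, were higher than in wt and none was lower, where 25.8% of all genes tested were called, 12.6% higher and 13.3% lower. Dhh, Ptch1, Gli1 and Hhip were not called. Expression of the ligand Dhh was 29.7, 23.0 and 17.8 normalised reads in wt and 23.6, 24.0 and 15.1 under the null label, with overlapping groups (log2 difference −0.18 ± 0.301, edgeR adjusted p = 0.704). The receptor Ptch1 was at 411, 433 and 462 in wt and 435, 466 and 414 under the null label. The groups overlapped, with a log2 difference of 0.01 and an interval of −0.17 to 0.19. Smo, the transducer, was at 2674, 2597 and 2482 in wt and at 3211, 3150 and 2906 in the libraries labelled null. Every null value lay above every wt value, a 1.2-fold rise (log2 0.26 ± 0.0665, edgeR adjusted p = 0.00877). In these bulk samples a change in the share of cells that express a gene and a change in RNA per cell cannot be told apart.

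Among the Gli factors, Gli2 and Gli3 were higher and Gli1 was not called. Gli2, the main activator, was at 330, 287 and 339 in wt and at 526, 513 and 565 under the null label, 1.68-fold higher (log2 0.75 ± 0.12, edgeR adjusted p = 2.6e-04). Gli3, mostly a repressor, was at 564, 434 and 518 in wt and at 795, 692 and 745 under the null label, 1.47-fold higher (log2 0.56 ± 0.116, edgeR adjusted p = 0.00205). Neither gene had overlapping groups. Gli1, the transcriptional target, was at 96.3, 110 and 99.5 in wt and at 72.6, 86.8 and 65.6 under the null label. Its groups did not overlap either, but the log2 difference of −0.44 ± 0.243 was not called (edgeR adjusted p = 0.198, interval −0.96 to 0.07), and it passed with an adjusted p of 0.0214 in a fit of these 6 libraries alone and of 0.0428 without control 3. The inhibitor Hhip was at 129, 146 and 116 in wt and at 147, 126 and 129 under the null label (log2 difference 0.04, edgeR adjusted p = 0.907). By the criterion of the study (adjusted p of at most 0.1, a mean over 100 and a fold below 0.6 or above 1.6), which 3% of genes met, Gli2 was the only member regulated. Here and below these limits were applied to the edgeR results, whereas the study tested with DESeq2.

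Of 28 other pathway components, 13 were higher, 1 was lower and 14 were not called under the null label, with a median log2 difference of 0.19 beside −0.01 over all genes tested. The rises were led by Scube2, from 19.1 ± 5.47 to 36.3 ± 5.74 normalised reads (SD, n = 3), and Scube3, from 548 ± 73.5 to 1016 ± 73.7, which encode secreted proteins that help release the ligands. The fall was that of Disp2, related to the ligand exporter Disp1, from 382 ± 27.4 to 189 ± 5.90 (log2 −1.02 ± 0.0842, edgeR adjusted p = 3.37e-07). Of the ligand co-receptors on the list, Boc and Gas1 were higher, Boc from 602 ± 20.4 to 926 ± 86.1 and Gas1 from 2384 ± 173 to 2834 ± 61.7, while Cdon (2095 ± 70.5 and 2050 ± 178, edgeR adjusted p = 0.851) and Lrp2 (129 ± 9.53 and 130 ± 21.8, adjusted p = 0.98) were not called. Without wt 2, 5 components were called higher and 1 lower. Of 12 Hedgehog-responsive genes, 10 could be tested, of which 7 were higher and 0 lower, with a median of 0.48. Bmp4, a growth factor of gut mesenchyme, led them with 85.5 ± 6.85 in wt and 175 ± 27.7 under the null label (log2 1.03 ± 0.234, edgeR adjusted p = 0.00365).

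Markers of other cells differed along with these genes. Both spleen mesenchyme markers, Tlx1 and Nkx2-5, were higher under the null label, with a summed level of 26.5 to 50.7 CPM against 13.6 to 17.3 in wt, and of the 5 stomach and intestine markers that could be tested, 1 was higher, 1 lower and 3 not called, with a median log2 difference of −0.52. The one higher was Barx1, of stomach mesenchyme, with 1034, 901 and 1211 reads against 714, 570 and 673, and the one lower was Vil1, of intestinal epithelium, with 89, 99 and 97 against 158, 183 and 156. Of the 7 epithelial markers, 6 were lower, with sums of 1500 to 1580 CPM against 2040 to 2200. Of 9 mesenchyme markers, 3 were higher (Vim, Pdgfra and Twist1) and 4 lower (Col1a1, Col3a1, Dcn and Lum). Their sums were 8780 to 10400 CPM against 11100 to 11200, and most reads in these sums were those of Col1a1, Col1a2 and Col3a1. Gene length moved with the calls too, since 23.2% of genes with over 6000 bases of exon were called higher and 10.1% lower, and Gli2 and Gli3 have 6869 and 9589. The part of these in the Gli2 and Gli3 results was not tested.

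In ALI cultures, JTE013 went with the widest spread of responses among the members. Gli1 was 9.67-fold lower than in control explants and Hhip 2.7-fold higher, while Ptch1 was not called. In all, 1 of 7 members was higher and 3 were lower, Dhh, Gli1 and Gli2, where 52.2% of all genes tested were called, 25.9% higher and 26.2% lower. The share of members called, 4 of 7, was close to that among all genes.

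Dhh was at 11.7, 5.03 and 16.7 normalised reads in control explants and at 1.06, 2.04 and 2.79 with JTE, and the groups did not overlap. These were 32 raw reads in all against 6, a control to JTE ratio of 5.52 with a 95% counting interval of 2.28 to 16.2 (exact binomial), and the fall was called (edgeR adjusted p = 0.00146). Ptch1 was at 391, 416 and 368 in control explants and at 341, 372 and 348 with JTE. The groups overlapped, and the log2 difference of −0.15 ± 0.0868 (edgeR adjusted p = 0.164) had an interval of −0.33 to 0.04. For Smo, the values of 2190, 2086 and 2288 in control explants overlapped the 2009, 1925 and 2258 with JTE, with a log2 difference of −0.08 (edgeR adjusted p = 0.317). The overlap was that of the JTE 3 library. Without it the log2 difference for Smo was −0.15, again not called (adjusted p = 0.0615).

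Gli1 showed the largest difference of any member. Its control explants held 45.7, 35.2 and 96.9 normalised reads and the JTE explants 6.35, 6.13 and 5.58, which was 6 raw reads in each JTE library. The third control library stood apart from the other two and within the range of wt pancreata (96.3 to 110), yet even the lowest control value lay far above all JTE values. The log2 difference was −3.27 ± 0.399 (edgeR adjusted p = 3.29e-06), and between −3.54 and −2.72 when single libraries were left out. By the criterion of the study, which asks for a mean over 100 reads in either group, Gli1 was too low to be counted. A stretch of 55 bases of Gli1 exons overlaps exons of Arhgap9 on the opposite strand, and whether the counting used strand is not given in the sources used here.

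Gli2 was at 247, 261 and 305 in control explants and at 148, 221 and 220 with JTE, without overlap and 1.38-fold lower (log2 −0.46 ± 0.135, edgeR adjusted p = 0.0085), with −0.56 without JTE 3. Gli3 was at 292, 325 and 291 in control explants and at 263, 274 and 393 with JTE. The high value was that of the JTE 3 library, and the log2 difference of 0.04 (edgeR adjusted p = 0.82) became −0.17 without it, again not called (adjusted p = 0.204). Hhip, the inhibitor, was at 80.7, 79.4 and 46.9 in control explants and at 219, 193 and 149 with JTE. All 3 JTE libraries were above all 3 control libraries (log2 1.43 ± 0.195, edgeR adjusted p = 1.13e-05), with 1.22 to 1.57 when single libraries were left out. Hhip was the one member to meet the criterion of the study here, which 8.25% of genes met. Thus Gli1 and Hhip, both readouts of the pathway, differed from control explants in opposite directions, and the third control library, highest for Gli1, was lowest for Hhip.

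**Figure D2:**
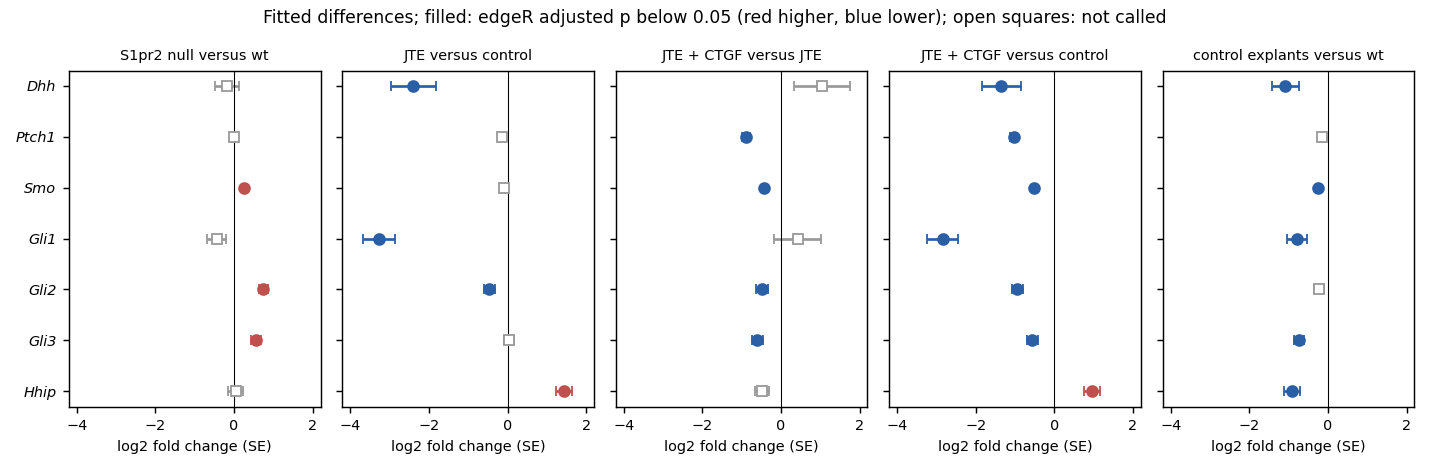
Log2 fold change (horizontal axis) of the 7 tested members in 5 comparisons, 1 panel each, with the SE as bars. Filled red and blue circles mark genes called higher or lower by edgeR at an adjusted p below 0.05, and open grey squares genes not called. Gli1 at −3.27 and Hhip at 1.43 are the extremes of the JTE panel, whereas Ptch1 lies near 0 there and at −0.89 once CTGF is added.

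Other pathway components were called more often higher than lower with JTE. Of 28, 14 were higher, 6 lower and 8 not called, with a median log2 difference of 0.17 beside 0 over all genes. Without JTE 3, 10 were higher and 6 lower. Scube2 rose on few reads, from 6.87 ± 1.95 to 14.0 ± 7.14 with overlapping groups (edgeR adjusted p = 0.0423). Tulp3, a ciliary trafficking factor that restrains the pathway, rose from 563 ± 46.8 to 940 ± 106, and Cdon, a ligand co-receptor, rose from 1256 ± 104 to 2043 ± 357. Scube3 fell from 228 ± 23.4 to 126 ± 26.1 (edgeR adjusted p = 2.52e-04). Of the 10 responsive genes tested, 1 was higher and 3 lower (2 without JTE 3). Ccnd1, a cell cycle gene, fell from 1442 ± 96.6 to 701 ± 87.0 (log2 −1.04 ± 0.108, edgeR adjusted p = 6.21e-07).

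Markers of several cell types were lower with JTE, while those of others were not or were mixed. All 5 endocrine markers were lower, with sums of 605 to 884 CPM against 4130 to 4690 in control explants. Of 7 epithelial markers, 4 were lower and 0 higher (1890 to 2360 against 2810 to 3200). Of the 5 stomach and intestine markers tested, 3 were lower and 1 was higher. The sum of all 10 on that list was 38.2 to 41.6 CPM against 59.5 to 66.3. All 5 endothelial markers were lower, with sums of 329 to 370 CPM against 446 to 546 in control explants, and 3 of 6 Schwann and neural crest markers were lower, with sums of 114 to 129 against 164 to 175. All 5 macrophage markers were lower, at 40.2 to 47.0 CPM against 111 to 134. Of the 9 mesenchyme markers, 2 were higher (Col1a1 and Col1a2) and 3 lower. Their sum was 11400 to 13900 CPM with JTE against 10600 to 11100, and the highest value was that of JTE 3. Of 6 pancreatic epithelium markers, 1 was higher and 2 lower, with sums of 6680 to 13000 CPM against 6480 to 8660. The sum of 6680 was that of JTE 3, with 11000 in JTE 1 and 13000 in JTE 2. Of 4 markers of enteric and other neurons, 1 was higher and 1 lower, and none of 4 erythroid markers was called. No endothelial or Schwann marker of the lists was at 0 in any library, which does not give the number of such cells. The part of these cells in the Dhh, Gli1 and other member results was not tested.

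**Figure D3:**
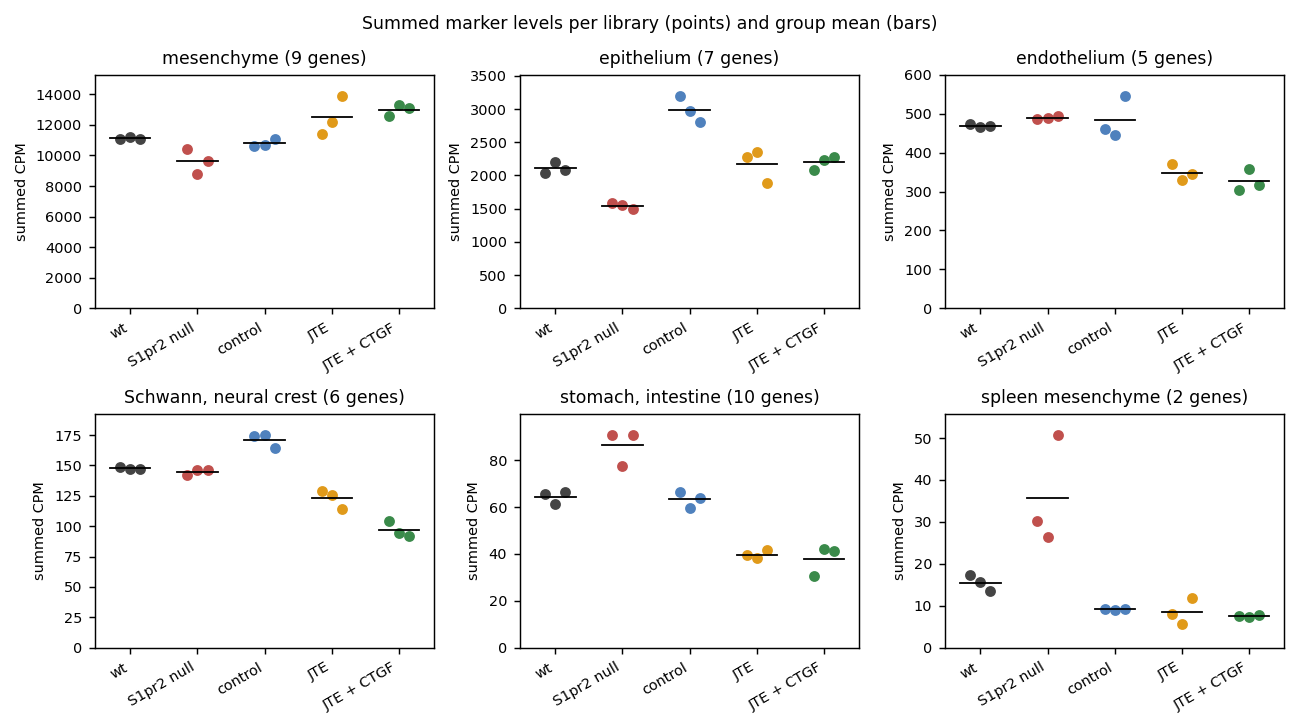
Summed level of marker genes in CPM (vertical axis, linear from 0) for 6 cell or tissue types in the 5 groups. Points are libraries and bars are means of 3. The endothelial sum is 446 to 546 in control explants and 329 to 370 with JTE, and the spleen mesenchyme sum is highest in the libraries labelled S1pr2 null.

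Addition of CTGF to JTE013 went with lower Ptch1, Smo, Gli2 and Gli3 and left Gli1 low. Against JTE alone, 4 of 7 members were lower and 0 higher, where 30.4% of all genes tested were called, 13.6% higher and 16.8% lower. Ptch1 was at 194, 216 and 161 with JTE + CTGF, below each JTE library and 1.85-fold lower (log2 −0.89 ± 0.0955, edgeR adjusted p = 4.48e-06). It was the only member to meet the criterion of the study, which 1.74% of genes met. Smo was at 1529, 1660 and 1424, also below each JTE library and 1.34-fold lower (log2 −0.43 ± 0.0686, edgeR adjusted p = 1.97e-04), with −0.32 and still called without JTE 3 (adjusted p = 0.00165). The receptor and the transducer were thus separated from JTE alone by more than the spread of replicates.

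Gli1 was at 5.72, 11.5 and 7.11 with JTE + CTGF and overlapped the JTE libraries (log2 difference 0.42 ± 0.594, edgeR adjusted p = 0.631, interval −0.83 to 1.68). Gli2 was at 166, 135 and 122, and the groups overlapped. Its log2 difference of −0.48 ± 0.149 was called (edgeR adjusted p = 0.0214) but fell to −0.35 and lost the call without JTE 3 (adjusted p = 0.107). It lost the call also without JTE 2 (0.0872), without JTE + CTGF 2 (0.0669) and without JTE + CTGF 3 (0.109). Gli3 was at 220, 206 and 187 and did not overlap (log2 −0.61 ± 0.141, edgeR adjusted p = 0.00366), with −0.36 without JTE 3, still called.

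Hhip, at 160, 133 and 107 with JTE + CTGF, overlapped the JTE libraries and was not called (log2 difference −0.48 ± 0.182, edgeR adjusted p = 0.0531). Without JTE 3 it was called lower, at −0.59 (adjusted p = 0.0174), as it was without control 1, control 3 or JTE + CTGF 1 (adjusted p of 0.0256 to 0.0488). Dhh was at 4.57, 4.58 and 3.55, from 11 raw reads in all against 6. These values lay above each JTE library, but the ratio of 2.12 had a counting interval of 0.719 to 6.99 and the gene was not called (edgeR adjusted p = 0.272).

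Long genes were lower as a class in this comparison. Of genes with over 6000 bases of exon, 46.5% were called lower and 2.85% higher, with a median log2 difference of −0.24, whereas up to 2000 bases 6.01% were lower and 22.5% higher, with a median of 0.15. Leaving out JTE 3 gave 39.3% lower for the longest class. Gli2 and Gli3 are in this class, Ptch1 (4305 bases) is in the class of 4000 to 6000, where 18% were lower with a median of −0.06, and Smo (3779 bases) in that of 2000 to 4000, where 6.7% were lower with a median of 0.06. Among cell markers, 3 of 4 erythroid markers were higher than with JTE alone and 2 of 5 macrophage markers were lower. Of 9 mesenchyme markers, 2 were higher and 1 lower, and of 5 endothelial markers, 1 was lower. The part of length in the Gli2 and Gli3 results, and of these cells in any member result, was not tested. Of the 28 other components, 7 were lower and 0 higher (5 and 3 without JTE 3) with a median of −0.14, led by the ciliary receptor Gpr161, from 219 ± 22.6 to 90.4 ± 29.8 (log2 −1.28 ± 0.155, edgeR adjusted p = 1.45e-05). Of the 10 responsive genes, 3 were lower and 0 higher (2 and 0 without JTE 3). Ccnd2, a cell cycle gene, fell from 6549 ± 145 to 3960 ± 237 (log2 −0.73 ± 0.0482, edgeR adjusted p = 4.88e-08).

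Against control explants, which the JTE comparison shares, JTE + CTGF differed in all 7 tested members. One was higher and 6 were lower, where 61.1% of all genes tested were called, 28.1% higher and 33% lower, and none of the 7 had overlapping groups, as was the case for 64.8% of all genes tested. Gli1 was 7.2-fold lower (log2 −2.85 ± 0.39, edgeR adjusted p = 7.46e-06), Ptch1 2.05-fold lower (−1.04 ± 0.0949, adjusted p = 8.91e-08) and Gli2 1.92-fold lower (−0.94 ± 0.144, adjusted p = 2.61e-05). Gli3 and Smo were lower by smaller amounts, with log2 differences of −0.57 ± 0.142 and −0.51 ± 0.0686. Dhh was lower by −1.36 ± 0.497 (edgeR adjusted p = 0.0232), a call that was lost without control 3 (−0.95, adjusted p = 0.141) and in 3 other fits. Hhip was 1.93-fold higher (log2 0.95 ± 0.204, edgeR adjusted p = 6.74e-04). By the criterion of the study, which 11.8% of genes met, Hhip was higher and Ptch1 and Gli2 were lower. Gene length moved with the calls here too. Over 6000 bases of exon, the class of Gli2 and Gli3, 48.5% of genes were called lower and 17.4% higher. From 4000 to 6000 bases, the class of Ptch1 and Hhip, 35% were lower and 27.5% higher. Among cell markers, all 5 endothelial, all 5 macrophage and 3 of 6 Schwann and neural crest markers were lower than in control explants. Of 4 erythroid markers, 3 were higher, and of 9 mesenchyme markers, 2 were higher and 2 lower. Of 7 epithelial markers, 1 was higher and 4 lower. The part of length and of these cells in these results was not tested. Among other components 9 were higher and 11 lower, with Tulp3 (0.63), Kif7 (0.51) and Ulk3 (0.43) leading the rises on the log2 scale and Scube3 (−1.57) the falls. Among responsive genes 6 were lower and 0 higher, led by Ccnd1 (−1.42).

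Culture itself was compared by setting control explants against wt pancreata, which also differ in stage and in that the explants were dorsal buds, so that these cannot be told apart. Here 5 of 7 members were lower and 0 higher, where 57.8% of all genes tested were called, 28.5% higher and 29.3% lower. Hhip was 1.88-fold lower in control explants (log2 −0.91 ± 0.2, edgeR adjusted p = 8.47e-04) and Gli3 1.67-fold lower (−0.74 ± 0.126, adjusted p = 8.44e-05), both without overlap. Smo was 1.18-fold lower, also without overlap (−0.24 ± 0.0671, edgeR adjusted p = 0.00553). Hhip in JTE explants, at 149 to 219 normalised reads, was thus above its range in wt pancreata (116 to 146), while in control explants it lay below it. Cell markers differed widely between these groups. Erythroid markers summed to 4.17 to 10.5 CPM in control explants against 294 to 331 in wt, macrophage markers to 111 to 134 against 61.7 to 68.6 and endocrine markers to 4130 to 4690 against 1650 to 1890, and 4 of 7 epithelial markers were higher. Of 9 mesenchyme markers, 5 were higher and 2 lower in control explants. Of 6 Schwann and neural crest markers, 3 were higher and 1 lower, and of 5 endothelial markers, 2 were higher and 2 lower. The part of these cells in the member results was not tested.

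Gli1 overlapped between control explants and wt because of the third control library, and its fall of 1.72-fold (log2 −0.78 ± 0.254, edgeR adjusted p = 0.0137) became −1.33 without that library and −0.51, not called, without control 2 (adjusted p = 0.0783). It was not called without control 1 either (−0.63, adjusted p = 0.0614). Dhh was 2.12-fold lower (log2 −1.08 ± 0.342, edgeR adjusted p = 0.0116), but not called without control 2 (−0.73, adjusted p = 0.0714) or without wt 1 (adjusted p = 0.0644). Ptch1 (−0.15, edgeR adjusted p = 0.134) and Gli2 (−0.23, adjusted p = 0.131) overlapped and were not called. Gli1, Gli3 and Hhip met the criterion of the study, as did 12.1% of genes. Of the other components 5 were higher and 14 lower. Disp2 rose from 382 ± 27.4 to 1357 ± 23.7 (log2 1.83 ± 0.0721, edgeR adjusted p = 2.37e-12), the opposite of its fall under the null label. Of the responsive genes tested 9 of 10 were lower, with a median of −0.60 beside −0.02 over all genes, led by Bmp4 (85.5 ± 6.85 to 23.9 ± 11.4) and Ccnd1 (4592 ± 343 to 1442 ± 96.6).

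**Figure D4:**
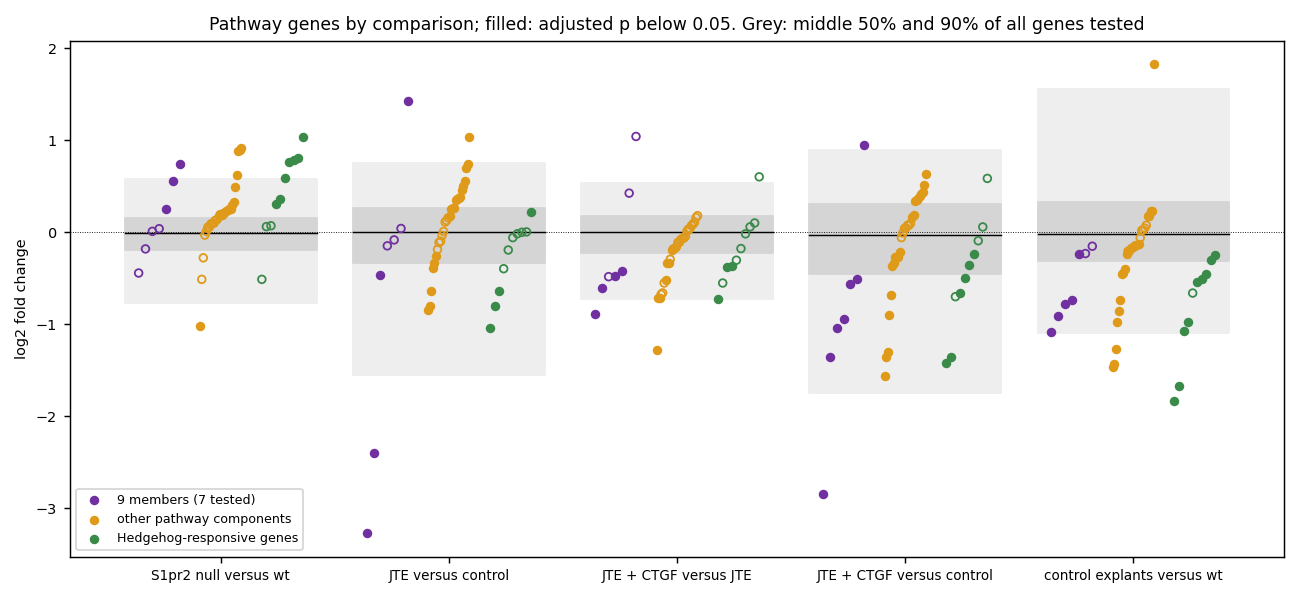
Log2 fold change (vertical axis) of the 7 tested members, 28 other pathway components and 10 tested Hedgehog-responsive genes in 5 comparisons. Filled points have an edgeR adjusted p below 0.05, and grey boxes hold the middle 50% and 90% of all genes tested with a line at their median. Gli1 and Dhh lie below the wider box with JTE and Hhip above it, and most responsive genes lie above the median under the null label and below it after culture.

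The responses to JTE013 and to the null label differed for 6 of the 7 tested members when the difference itself was tested (JTE minus control set against S1pr2 null minus wt), where 42.9% of all genes tested were called, 21.5% in each direction. The log2 difference between the responses was lower for Dhh, Smo, Gli1, Gli2 and Gli3 and higher for Hhip. For Ptch1 it was −0.16 ± 0.12 (edgeR adjusted p = 0.308). Gli2, higher under the null label and lower with JTE, and Gli1, with −0.44 under the null label and −3.27 with JTE, were the clearest cases. The arms differ in more than the receptor, since one compares whole organs and the other cultured buds.

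Across the 15 libraries, the members fell into patterns that are given as a description, since all values come from the same libraries and follow the 5 groups. The Pearson correlation of log2 CPM was 0.95 between Smo and Gli3, 0.94 between Gli2 and Gli3, 0.93 between Smo and Gli2 and 0.93 between Dhh and Gli1. Hhip lay apart, with −0.47 to 0.08 against the other 6. The protein-coding genes most like Gli1 were Gng11 (0.98), Fen1 (0.979) and Col9a3 (0.978), and those most like Ptch1 were Hnrnpul2 (0.982), Exoc4 and Hipk2 (both 0.981). Abl1 and Ephb4 (both 0.986) and Myh10 (0.983) were most like Smo, and Apaf1 (0.983), Rbfox2 (0.982) and Nhsl2 (0.981) most like Gli2. Tenm3 (0.993), Utp20 (0.988) and Zfp462 (0.987) were most like Gli3. Hhip had no gene above 0.92, the value of Ankrd27, which was followed by Otud3 (0.91) and Cul4a (0.909). Mapk8ip1 and Sumo3 (both 0.961) and Ube2n (0.957) were most like Dhh.

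By position in mm10, the members lie apart. Ptch1 (chr13:63511533-63565520, minus strand) and Gli3 (chr13:15463235-15730026, plus strand) share a chromosome, as do Ihh (chr1:74945319-74951651, minus) and Gli2 (chr1:118834132-119053619, minus). Shh is at chr5:28456815-28467101 (minus), Dhh at chr15:98893031-98898540 (minus), Smo at chr6:29735694-29761365 (plus), Gli1 at chr10:127329889-127341589 (minus) and Hhip at chr8:79966115-80058006 (minus). All 9 are protein-coding, and no exon of a member other than Gli1 overlapped another gene.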

How the data were processed

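RNA was measured by poly(A) RNA-seq in 15 libraries of embryonic pancreas, 3 per group, with groups taken from the titles. The table deposited by the authors holds raw counts per Ensembl gene on mm10. Per the labels and the methods of the study, mRNA was made into strand-specific libraries, reads were demultiplexed with bcl2fastq 1.8.4 and aligned with GSNAP, and uniquely aligned reads were counted with featureCounts 1.4.6, the authors then testing with DESeq2 1.6.2. Strand use in counting is not given in the sources used here. Symbols from GENCODE M21 matched 24750 of 25292 identifiers (97.9%). The members, gene lists and tests were chosen with earlier results of these data known.

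Counts were tested with edgeR 4.0.16 in R 4.3.3 by the quasi-likelihood F-test, with TMM factors, filterByExpr (16245 genes kept), 1 coefficient per group over all 15 libraries and Benjamini-Hochberg adjustment over all genes tested, and called at an adjusted p below 0.05. The common biological coefficient of variation was 7.3%. RPKM used exon length and effective library size, and CPM the same size. The script was tested on simulated counts. Named genes were all members, the 3 largest called rises and falls of both gene lists in each comparison, and the 3 most correlated protein-coding genes with a mean over 100; 1 gene that this rule names is not reported here. Boc, Gas1, Lrp2, Barx1, Vil1, Cdx1, Cdx2, the mesenchyme markers named and the length classes were chosen after their values were seen. Alternatives were other scaling factors, DESeq2 1.42.0, no filter, fewer libraries per fit, a replicate block, leaving out each library and the criterion of the study applied to the edgeR results. Counting intervals cover counting error only. Replicate numbers did not pair the samples. Promoter windows came from RefSeq (GRCm38.p6).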

Additional observations from a re-analysis of the deposited data

Results flagged for a closer look

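For 6 of the 7 tested members the response to JTE013 differed from that under the S1pr2 null label by the edgeR interaction test, adjusted over all genes tested. Of all genes tested, 42.9% were called in this test, 21.5% in each direction. The difference of log2 responses (JTE minus control, less S1pr2 null minus wt) was −2.22 ± 0.656 for Dhh (adjusted p = 0.0096), −0.34 ± 0.0947 for Smo (0.00797), −2.83 ± 0.487 for Gli1 (1.81e-04), −1.21 ± 0.181 for Gli2 (5.3e-05), −0.52 ± 0.176 for Gli3 (0.0258) and 1.39 ± 0.267 for Hhip (5.07e-04). For Gli3 the call was lost when wt 2, S1pr2 null 1, control 2, JTE 1 or JTE 2 was left out, with adjusted p of 0.062 to 0.0737 and differences of −0.47 to −0.41. The other 5 kept their call in each fit without 1 library. For Dhh the JTE arm rests on 6 reads.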

How the results depend on the processing

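Of 878 alternative values for the 42 member results, 843 kept direction and side of the threshold, 19 lost the call, 8 gained it and 8 changed sign, none of the last being called. Under the criterion of the study the members regulated fell to 1 of 3 under the null label, 1 of 4 with JTE, 1 of 4 for JTE + CTGF against JTE, 3 of 7 for JTE + CTGF against control and 3 of 5 for control against wt, as its mean and fold limits are stricter by construction. Leaving out single libraries gave 3 to 5 members in control against wt, 6 to 15 other components under the null label and 1 to 3 responsive genes for JTE + CTGF against JTE. Sign changes were those of Ptch1 under the null label with upper quartile factors (−0.00693) and over single libraries (−0.0366 to 0.054), Dhh (−0.344 to 0.026) and Hhip (−0.0359 to 0.124) under the null label, and Gli3 with JTE (−0.172 to 0.145). The cause was not tested. With DESeq2, Dhh lost its call for JTE + CTGF against control (adjusted p = 0.0541) and for control against wt (0.0577). In the fit of the compared libraries alone, Gli2 lost its call for JTE + CTGF against JTE (0.0794), and with no filter Hhip gained it there (0.0277). Total counts without a factor moved levels by −6.47% to 7.44%.

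Replicate numbers did not pair the samples: correlations of same-numbered deviations ran from −0.087 to 0.21, and 0 of 10 group pairs had all 3 above 0.1. With a replicate block, Hhip was called for JTE + CTGF against JTE (−0.49, adjusted p = 0.0118), and no other member changed its call. Depth limits Shh, Ihh, Dhh and, with JTE, Gli1.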
